A study of Mus musculus with 5 samples.

Results

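The heavy chain variable segments are the 185 genes whose GRCm38 symbol begins with Ighv, out of 55487 genes counted in the series. The rule is the symbol alone and takes in every such gene, whatever its level. Of these genes, 113 are annotated in GENCODE M21 as V genes, 70 as V pseudogenes and 2 as entries on the opposite strand that repeat the symbols Ighv5-8 and Ighv1-13, so that there are 183 different symbols in 16 families. All lie on chromosome 12 between positions 113572927 and 116010093 (GRCm38), a span of 2.44 Mb. The segment nearest to the diversity (D) segments is 46.1 kb from Ighd5-1 and the farthest 2482.8 kb.

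An immunoglobulin heavy chain gene is assembled in B-cell precursors by joining a D to a J segment and then a V segment to the DJ unit, next to the constant genes. The V segments differ in their distance from D, and the joining of distal V segments is known to need the locus to fold on itself, with the transcription factors Pax5 and YY1 and the cohesin and CTCF proteins among the factors involved. V segments are also transcribed before they are joined. A count per gene does not separate such germline RNA from RNA of a joined heavy chain, and it does not tell fewer cells that use a segment from less RNA of it per cell.

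Bulk RNA sequencing was done on common lymphoid progenitors (CLPs), the marrow cells that give rise to B, T and natural killer cells, sorted from mouse bone marrow as Lin-CD127+Flt3+ cells. The 3 SF1 libraries come from SclCre;JAK2-V617F mice, in which a Cre driven by Scl regulatory sequence acts together with a JAK2 allele of the constantly active kinase found in myeloproliferative neoplasms. The 2 WT libraries come from wild-type mice. Marrow of both groups was taken 16 weeks after tamoxifen, which activates an inducible Cre. Mouse age, whether the wild-type mice carry the Cre, which of SMART-Seq version 2 or version 4 made which library, and whether a library holds 1 animal or a pool are not stated in the labels, so p-values measure only the spread between these libraries. The receptor genes of the sort were present in every library, with Flt3 at 1510 to 1700 and Il7r at 331 to 465 TMM-scaled CPM (counts scaled to a common library size). Of 4 CLP marker genes tested (edgeR quasi-likelihood test), 2 were higher in SF1 and 1 lower (75% called, beside 16.5% of all genes). Kit was lower (log2 fold change of SF1 over WT -0.514, adjusted p = 0.0116). Ly6a (1.055, adjusted p = 0.000772) and Il7r (0.324, adjusted p = 0.0318) were higher, and Flt3 did not pass (adjusted p = 0.233). Total counts were between 8894288 and 20424296 per library, WT replicate 1 being the deepest, and 1 count stood for between 0.05 and 0.114 CPM.

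The coding sequences of 5 segments are shown because the results turn on them: 3 that stood out in some SF1 libraries, the segment abundant in every library and the most abundant segment that passed the test. The last 300 bases of each coding sequence (GENCODE M21) are printed, 5′ to 3′, which hold the framework and complementarity-determining regions up to the joining end, with capitals at the bases that differ from the nearest other Ighv gene. Ighv1-81 (chr12:115920279-115920712, minus strand) is 351 bases long and 92.9% identical to Ighv1-85. Ighv5-6 (chr12:113625506-113625956, minus strand) is 95.5% identical to Ighv5-4, and Ighv1-47 (chr12:114991108-114991580, minus strand) is 83.5% identical to Ighv1-86. Over their whole coding sequence Ighv1-23 (chr12:114764450-114764883, minus strand) differs from Ighv1-15 at 7 bases and Ighv1-74 (chr12:115802648-115803080, minus strand) from Ighv1-69 at 14.
Ighv1-81: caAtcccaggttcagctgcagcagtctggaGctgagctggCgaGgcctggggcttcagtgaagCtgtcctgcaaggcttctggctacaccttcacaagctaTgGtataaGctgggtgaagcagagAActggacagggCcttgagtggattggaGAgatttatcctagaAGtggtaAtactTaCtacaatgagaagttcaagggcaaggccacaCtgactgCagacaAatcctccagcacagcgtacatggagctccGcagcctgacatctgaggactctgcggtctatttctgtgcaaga
Ighv5-6: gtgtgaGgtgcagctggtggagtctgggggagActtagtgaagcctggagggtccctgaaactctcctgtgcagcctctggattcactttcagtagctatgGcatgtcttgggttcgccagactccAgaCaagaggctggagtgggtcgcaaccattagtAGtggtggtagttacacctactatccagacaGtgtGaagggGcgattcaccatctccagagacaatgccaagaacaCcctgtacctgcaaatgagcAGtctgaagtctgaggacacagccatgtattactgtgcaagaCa
Ighv1-47: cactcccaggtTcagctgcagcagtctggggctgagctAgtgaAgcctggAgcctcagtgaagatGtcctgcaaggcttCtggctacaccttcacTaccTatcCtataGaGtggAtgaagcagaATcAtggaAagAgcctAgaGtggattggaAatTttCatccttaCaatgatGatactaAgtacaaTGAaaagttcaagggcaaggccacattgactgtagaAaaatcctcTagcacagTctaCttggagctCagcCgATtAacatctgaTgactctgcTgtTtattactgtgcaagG
Ighv1-23: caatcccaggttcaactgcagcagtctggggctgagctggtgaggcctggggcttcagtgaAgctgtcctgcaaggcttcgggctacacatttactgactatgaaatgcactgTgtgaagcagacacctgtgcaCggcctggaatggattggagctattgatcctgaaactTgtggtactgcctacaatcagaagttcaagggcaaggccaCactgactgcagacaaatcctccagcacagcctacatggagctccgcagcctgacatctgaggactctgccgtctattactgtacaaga
Ighv1-74: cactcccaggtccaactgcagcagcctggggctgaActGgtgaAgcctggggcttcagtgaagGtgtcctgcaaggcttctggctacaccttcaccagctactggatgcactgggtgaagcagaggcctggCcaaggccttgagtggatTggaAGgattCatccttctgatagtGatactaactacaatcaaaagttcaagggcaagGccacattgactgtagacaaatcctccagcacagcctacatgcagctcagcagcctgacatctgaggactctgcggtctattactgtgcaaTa

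Over the 183 genes compared, identity to the nearest other segment had a median of 93.7% and ranged from 64.4 to 99.7%. In 76 it was at least 95%. The median segment had 82.2% of its 50-base windows in no other Ighv gene, and every segment had some such window. Near-identical segments can share reads, and how reads matching several places were counted is not given, so values of single segments are uncertain to that extent.

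The summed level of the 185 segments was similar in the 2 genotypes. In SF1 replicates 1, 2 and 3 it was 131, 126 and 147 CPM, and the WT libraries were at 126 and 132 CPM. The ranges overlapped, with a ratio of group means of 1.04. In counts the sums were 1232, 1442 and 1601 in SF1 and 2509 and 1159 in WT, or between 0.0123 and 0.0149% of all counts. Ighm, the constant gene of immunoglobulin M that is joined to V segments in early B cells, had 27080, 30848 and 28101 counts in SF1 and 52070 and 21675 in WT. There were therefore 45.5, 46.7 and 57.0 Ighv counts per 1000 Ighm counts in SF1 and 48.2 and 53.5 in WT, again with overlapping ranges. Pseudogenes, which cannot encode a complete V region, held 15.0, 18.4 and 13.2% of the Ighv counts in SF1 and 13.0 and 14.9% in WT.

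Which segments made up this sum differed between libraries. Ighv1-81 was the top segment in SF1 replicates 2 and 3, with 17.8% (95% exact Clopper-Pearson interval 15.9 to 19.9%) and 37.7% (35.3 to 40.1%) of their Ighv counts. Ighv1-23 was the top segment in SF1 replicate 1, with 14.3% (12.4 to 16.4%), and in WT replicates 1 and 2, with 19.9% (18.3 to 21.5%) and 16.8% (14.7 to 19.1%). These intervals cover counting error only, since the libraries have no molecular identifiers and PCR copies count as reads. After removal of the top segment of each library the sums were 112, 104 and 91.7 CPM in SF1 and 101 and 110 CPM in WT, and the ratio was 0.973. Ighv1-81 was removed in SF1 replicates 2 and 3 and Ighv1-23 in the other libraries. The sums thus do not cover the same segments, and the ratio does not show that any fixed set of segments was equal.

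**Figure D1:**
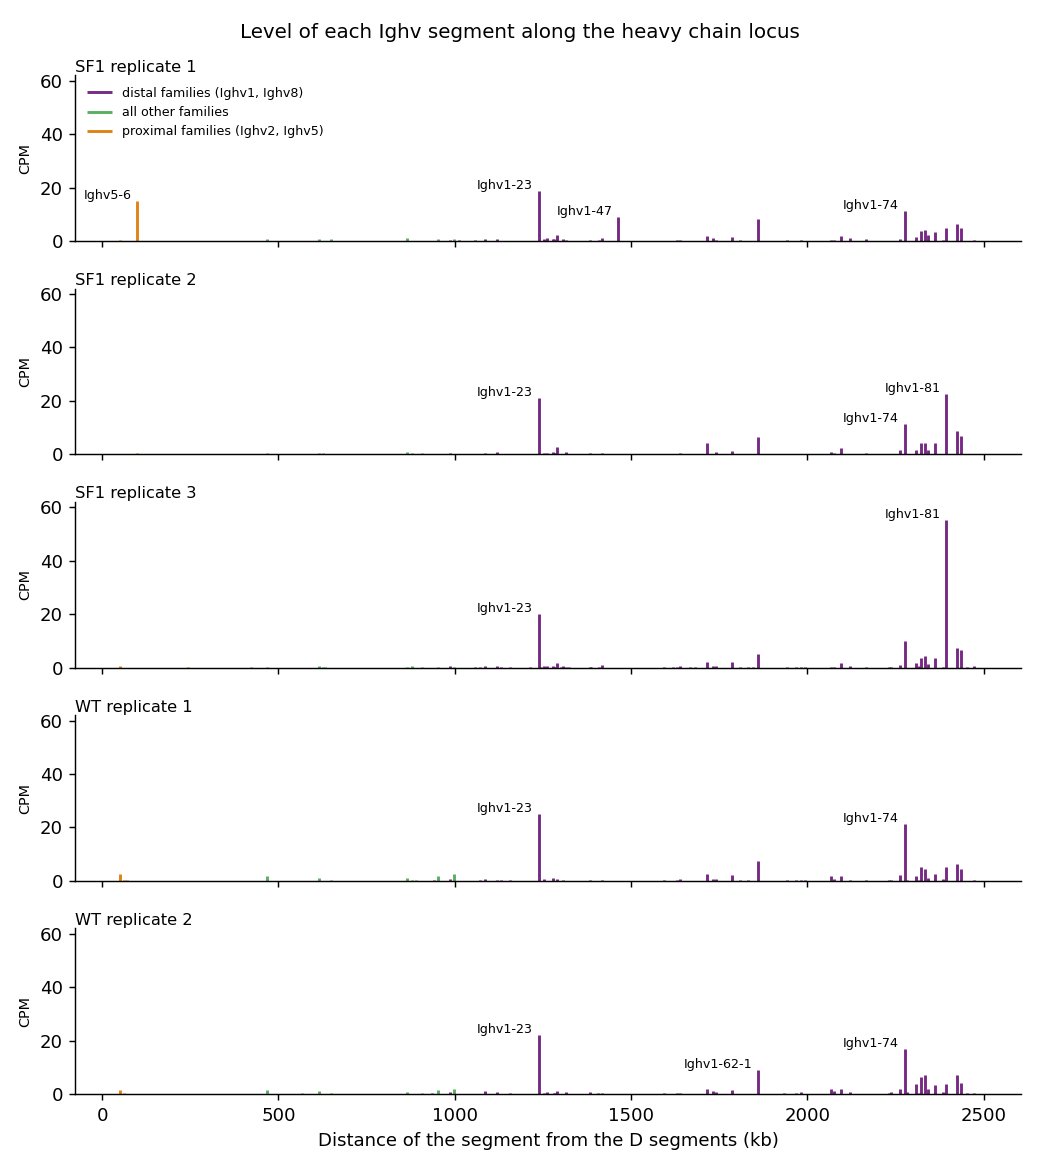
Level of each segment in TMM-scaled CPM (vertical axis) against its distance from the D segments in kb (horizontal axis), 1 panel per library, with line colour for the family class and names at segments with at least 6.9% of the Ighv counts of a library. Ighv1-23 stands high in all 5 panels, Ighv1-81 in SF1 replicates 2 and 3, and Ighv5-6 and Ighv1-47 in SF1 replicate 1.

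Ighv1-81 (ENSMUSG00000094689), a distal segment 2393.5 kb from D, was counted 48, 257 and 603 times in SF1 replicates 1, 2 and 3, and the WT libraries had 105 and 35 counts. Its levels were 5.11, 22.5 and 55.4 CPM in SF1 and 5.28 and 3.99 CPM in WT. SF1 replicates 2 and 3 were above both WT libraries, while SF1 replicate 1 lay between them, so the groups overlapped. The log2 fold change of SF1 over WT was 2.55 (SE 0.78), and it did not pass the threshold of 0.05 (adjusted p = 0.0548, edgeR quasi-likelihood test). Without SF1 replicate 1 the log2 fold change was 3.04 with an adjusted p of 0.00446. It did not pass without SF1 replicate 2 (2.68, adjusted p = 0.11) or without SF1 replicate 3 (1.56, adjusted p = 0.139). Without WT replicate 1 it was 2.8 and without WT replicate 2 it was 2.39. The value thus depended on single SF1 libraries. Per kb of exon, which allows comparison with other segments, Ighv1-81 stood at 14.5, 64.1 and 158 CPM in SF1. On that scale Ighv1-23 was at 53.3, 60.1 and 57.3 CPM in the same libraries. The neighbours of Ighv1-81 on either side did not show its pattern: Ighv1-80 had 3, 4 and 3 counts in SF1, and Ighv1-82 had 59, 99 and 81.

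Ighv5-6 (ENSMUSG00000094951), a proximal segment 98.7 kb from D, was abundant in 1 library only. SF1 replicate 1 had 142 counts of it, the other two SF1 libraries 6 and 0, and the WT libraries 1 each. The 142 counts were 11.5% of the Ighv counts of that library (9.8 to 13.4%) and 15.1 CPM, and the 0 of SF1 replicate 3 allows up to 0.276 CPM (3 counts). Ighv1-47 (ENSMUSG00000076709), a distal segment 1464.3 kb from D, had 85 counts in the same library, none in the other two of SF1, and 1 and 0 in WT. Neither segment passed the filter on low counts, so neither was tested. The segments on either side of them, Ighv5-5 and Ighv5-7 beside Ighv5-6 and Ighv1-46 and Ighv8-3 beside Ighv1-47, had no count in any library.

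Other abundant segments varied far less. The coefficient of variation of the level over the 5 libraries was 222% for Ighv1-47, 212% for Ighv5-6 and 119% for Ighv1-81, and next came Ighv1-56 at 35.3%, among the segments with at least 50 counts in some library. At the low end Ighv1-82 had 13.3% and Ighv1-23 11.2%. The top 10 segments of any 2 libraries shared 8 or 9 names. In all 5 libraries the top 10 held Ighv1-23, Ighv1-62-1, Ighv1-74, Ighv1-76, Ighv1-77, Ighv1-81, Ighv1-82 and Ighv1-83. Ighv1-56 and the lower names of the top 10 are given here after their values were seen.

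Ighv1-23 (ENSMUSG00000103290), 1237.6 kb from D, had 176, 241 and 219 counts in SF1 and 499 and 195 in WT. Its levels were 18.7, 21.1 and 20.1 CPM in SF1 and 25.1 and 22.2 CPM in WT. Every SF1 library was below both WT libraries, but the difference did not pass the test (log2 fold change -0.25, SE 0.14, adjusted p = 0.252). Ighv1-62-1 had 77, 76 and 55 counts in SF1 and 147 and 80 in WT, with overlapping levels (adjusted p = 0.448). An exon of the long noncoding RNA gene Gm19331 on the opposite strand covers 154 bases of Ighv1-62-1. The library chemistry does not mark strand, so reads within those bases cannot be assigned to 1 of the pair, while the rest of the 349 exon bases of Ighv1-62-1 is its own. Gm19331 itself was at 20.4, 17.1 and 11.9 CPM in SF1 and 19.9 and 20.3 CPM in WT.

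**Figure D2:**
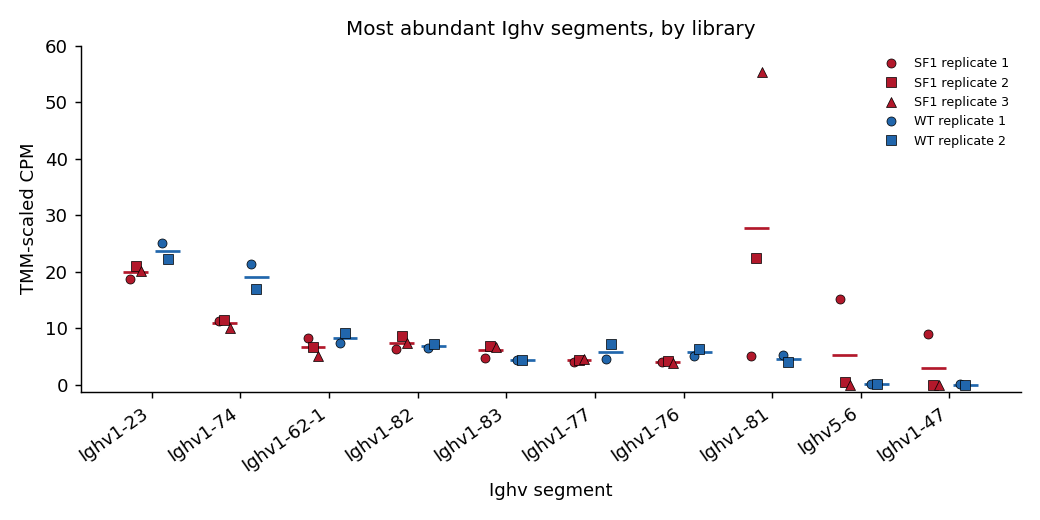
TMM-scaled CPM (vertical axis) of 10 abundant segments (horizontal axis), with SF1 libraries in red, WT libraries in blue, 1 marker shape per replicate number and a line at the group mean. Ighv1-81 reaches 55.4 CPM in SF1 replicate 3, and Ighv1-74 is at 11.5 CPM or less in SF1 and 16.9 CPM or more in WT.

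Counts were concentrated in few segments, and to a different extent in each library. The 3 most abundant segments held 34.4, 43.6 and 58.2% of the Ighv counts in SF1 and 42.6 and 36.5% in WT. The inverse Simpson number, which is the number of equally abundant segments that would give the same concentration, was 16.6, 11.8 and 5.73 in SF1 and 11.9 and 15.6 in WT. SF1 replicate 3 was the lowest, and the other libraries of both groups overlapped. At least 1 count was found for 84, 78 and 75 segments in SF1 and for 103 and 94 in WT. After thinning all libraries to 8894288 counts (100 draws) these numbers were 83.1, 72.9 and 71.5 in SF1 and 82.7 and 94.0 in WT, where the groups overlapped.

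Over all libraries 61 of the 185 segments had no count, 60 had between 1 and 9 counts, and 64 had 10 or more. A count in every library was found for 54. Segments counted only in SF1 numbered 12, none with more than 4 counts in sum, and 21 were counted only in WT, none with more than 7.

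Of the 185 segments, 27 passed the filter on low counts and were tested, 20 of them of the Ighv1 family and 7 pseudogenes. The filter asks for about 0.932 CPM in any 2 libraries, so it lets through a segment that is high in both WT libraries alone but not one that is high in a single library. By that minimum 15 of the 27 qualified in both groups, 6 through the WT libraries alone, 3 with 2 or more SF1 libraries but not both WT libraries, and the other 3 with 1 library of each group. A segment that passes through 1 group tends to differ in that direction, so the numbers that follow describe the 27 only. Among them 5 were lower in SF1, 0 were higher and 22 did not pass. Of the 5, only Ighv1-74 qualified in both groups, and the other 4 passed the filter through the WT libraries alone. The share called was 18.5%, beside 16.5% of all 14423 genes tested (6.77% higher and 9.74% lower). DESeq2 called 2 segments lower (Ighv10-3 and Ighv1-74) and 0 higher. In 10 of the 27 every SF1 library was below every WT library and in 3 every one was above, in all 48.1%, beside 49% of all genes (24.2% below and 24.8% above). Their median log2 fold change was -0.29, against 0.02 for all genes tested.

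**Figure D3:**
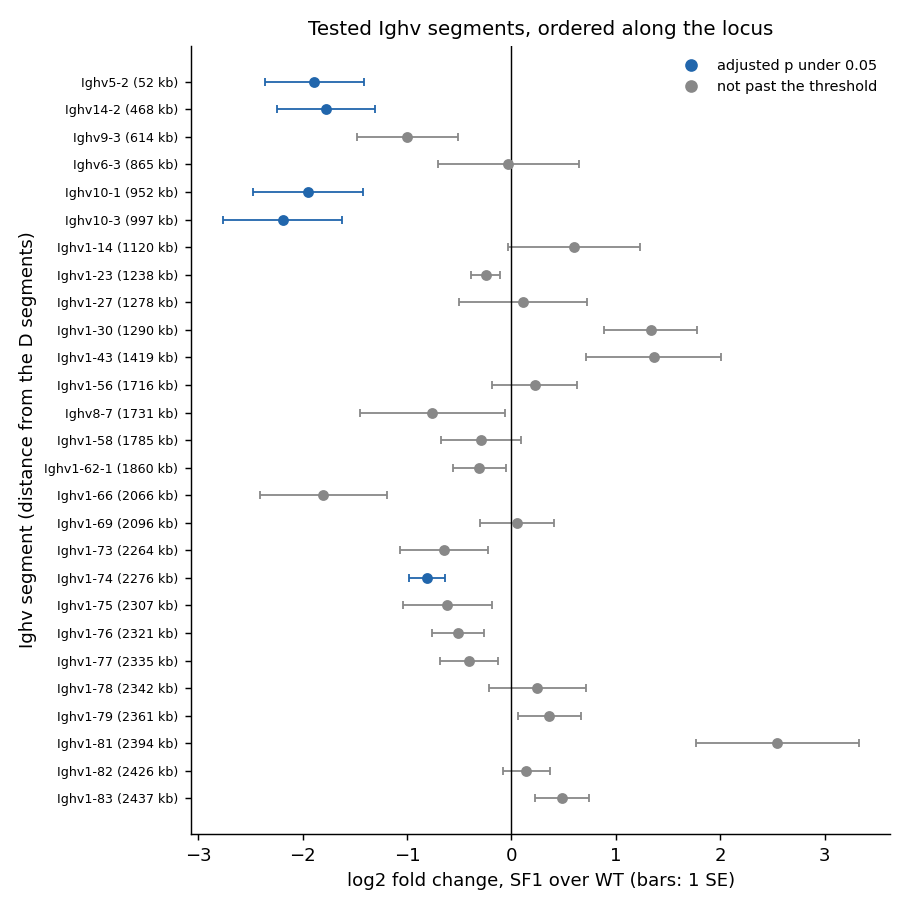
Log2 fold change of SF1 over WT (horizontal axis, bars 1 SE) for the 27 tested segments, ordered by distance from the D segments given in kb beside each name (vertical axis), blue where the adjusted p is under 0.05. The 5 blue points, Ighv5-2, Ighv14-2, Ighv10-1, Ighv10-3 and Ighv1-74, lie left of 0, and Ighv1-81 has the highest value, 2.55.

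Ighv1-74 (ENSMUSG00000094124), 2275.8 kb from D, was the most abundant of the 5 lower segments. It had 106, 131 and 110 counts in SF1 and 423 and 148 in WT. Its mean level was 11 CPM in SF1 (SD 0.736, n = 3) and 19.1 CPM in WT (SD 3.13, n = 2). All SF1 libraries were below both WT libraries, and the level fell 1.75-fold (log2 fold change -0.81, SE 0.17, adjusted p = 0.0139). With 16.9 and 12.8% of the Ighv counts it was the second segment of both WT libraries, while in SF1 its share was 8.6, 9.08 and 6.87%. Without WT replicate 1 the adjusted p was 0.15.

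The other 4 segments with an adjusted p under 0.05 were much less abundant and lie nearer to D. They were tested only because both WT libraries reached the minimum of the filter, with SF1 mostly under it, so a lower value in SF1 is favoured by the filter and their p-values are not evidence of a difference on their own. Ighv10-3 (chr12:114523441-114523905), 996.6 kb from D, had 9, 4 and 2 counts in SF1 and 49 and 17 in WT. It was 4.57-fold lower in SF1 (log2 fold change -2.19, SE 0.57, adjusted p = 0.0323). Ighv10-1 (chr12:114479005-114479451), which is 96.7% identical to Ighv10-3, had 8, 4 and 3 counts in SF1 and 40 and 15 in WT and was 3.87-fold lower (adjusted p = 0.0363). Between such similar segments reads may be split, so their values are not separate evidence.

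Ighv14-2 (chr12:113994469-113994898), 467.7 kb from D, had 7, 5 and 4 counts in SF1 and 36 and 15 in WT. It was 3.43-fold lower (log2 fold change -1.78, SE 0.47, adjusted p = 0.0345). Ighv5-2 (chr12:113578504-113578990), one of the segments closest to D at 51.7 kb, had 5, 4 and 9 counts in SF1 and 49 and 15 in WT, and it was 3.7-fold lower (log2 fold change -1.89, SE 0.48, adjusted p = 0.0286). Leaving out WT replicate 1, the deepest library, left none of the 5 segments past the threshold, with adjusted p between 0.15 and 0.292 and log2 fold changes between -1.98 and -0.62. Only Ighv1-74 remained past it without SF1 replicate 2 or without WT replicate 2, Ighv1-74 and Ighv5-2 without SF1 replicate 3, and 4 segments, all but Ighv5-2, without SF1 replicate 1.

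Ighv1-66 had 6, 9 and 1 counts in SF1 and 35 and 16 in WT, and its log2 fold change of -1.80 did not pass (adjusted p = 0.0755). Ighv9-3 had 7, 5 and 6 counts against 23 and 10 (adjusted p = 0.199). In the opposite direction the pseudogene Ighv1-30 had 21, 30 and 21 counts in SF1 and 13 and 11 in WT, with every SF1 library above both WT libraries (log2 fold change 1.34, adjusted p = 0.0731). Ighv1-30 reached the minimum of the filter in 3 SF1 libraries and 1 WT library, so the filter favours a higher value in SF1. Ighv1-66 and Ighv9-3 reached it in both WT libraries and in no SF1 library, which favours a lower value. These 3 segments were picked after their values were seen.

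**Figure D4:**
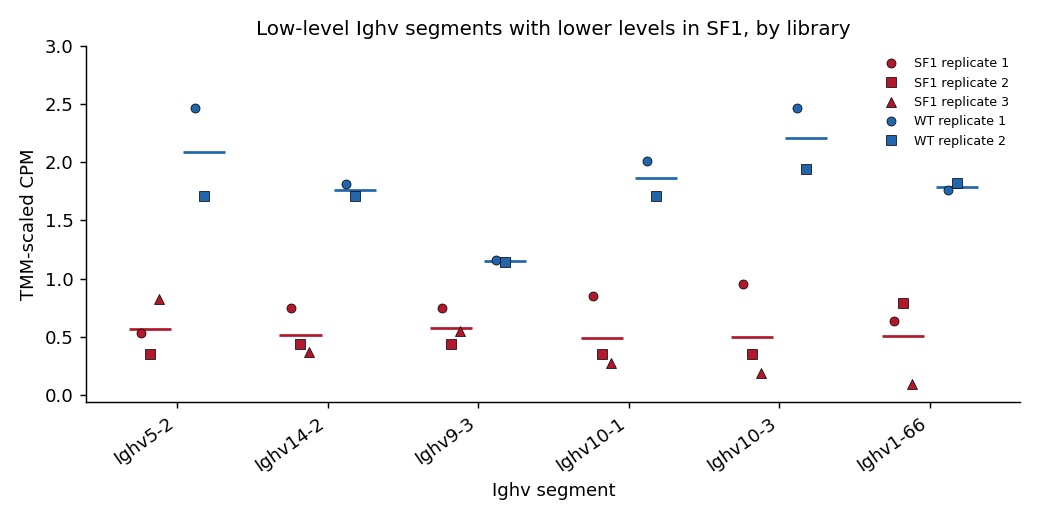
TMM-scaled CPM (vertical axis) of 6 segments of low level (horizontal axis) by library, SF1 in red and WT in blue, with a line at the group mean. All 6 reached the minimum of the filter in both WT libraries and in at most 1 SF1 library, so the filter itself favours the gap that the points show.

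By family, Ighv1, the largest with 93 genes, held most of the counts. Its counts were 982, 1364 and 1532 in SF1 and 2164 and 1003 in WT, which were 79.7, 94.6 and 95.7% of the Ighv counts in SF1 and 86.2 and 86.5% in WT. SF1 replicate 1 was below both WT libraries and SF1 replicates 2 and 3 were above them. The Ighv5 family, with 22 genes between 46.1 and 793.2 kb from D, had 149, 11 and 9 counts in SF1 and 54 and 18 in WT. Of the 149 counts of SF1 replicate 1, 142 were Ighv5-6, and in WT most were Ighv5-2, with 49 and 15. The Ighv8 family, whose genes lie among those of Ighv1, had 41, 16 and 29 counts in SF1 and 83 and 50 in WT, with overlapping levels.

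In 4 of the 14 families with a count (Ighv2, Ighv9, Ighv10 and Ighv14, 28.6%) every SF1 library was below both WT libraries, a share near the 24.2% of all genes tested. Ighv10 had 17, 8 and 5 counts in SF1 and 89 and 32 in WT. Its mean level was 0.989 CPM in SF1 (SD 0.719, n = 3) and 4.06 CPM in WT (SD 0.59, n = 2), a ratio of WT to SF1 of 4.1. Ighv14 had 17, 6 and 4 counts in SF1 and 48 and 19 in WT, and mean levels of 0.9 (SD 0.79) and 2.29 CPM (SD 0.178). Ighv9 had 10, 7 and 6 counts in SF1 and 25 and 17 in WT, and Ighv2 had 1, 0 and 1 in SF1 and 5 and 4 in WT. The SDs of Ighv10 and Ighv14 in SF1 come mainly from SF1 replicate 1, the highest of the 3. Ighv6 was not of this kind, with 14, 23 and 10 counts in SF1 and 32 and 12 in WT and overlapping levels. No count was found for Ighv13 and Ighv16. Sums over families were not tested.

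**Figure D5:**
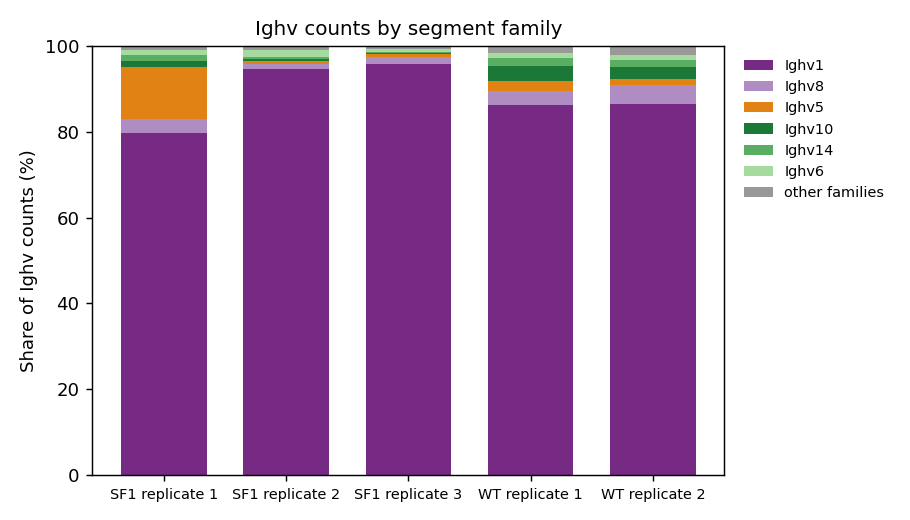
Share of the Ighv counts (vertical axis, percent) by family in each library (horizontal axis), with the families of few counts summed in grey. Ighv1 takes between 79.7 and 95.7%, and Ighv5 takes 12.1% in SF1 replicate 1 and at most 2.15% elsewhere.

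Along the locus, segments were placed in a distal class (Ighv1 and Ighv8, 109 genes), a proximal class (Ighv2 and Ighv5, 33 genes) and an intermediate class of all other families (43 genes). The intermediate class had 59, 51 and 30 counts in SF1 and 203 and 84 in WT. Its level was 6.28, 4.47 and 2.76 CPM in SF1 and 10.2 and 9.57 CPM in WT, with every SF1 library below both WT libraries and a ratio of WT to SF1 means of 2.2. Of the 203 and 84 WT counts, 89 and 32 were Ighv10 and 48 and 19 were Ighv14. In SF1 Ighv10 had 17, 8 and 5 counts and Ighv14 had 17, 6 and 4. Of the other families of the class only Ighv9 had every SF1 library below both WT libraries. The ratio thus rests mostly on few families and does not describe the class as a whole. When the segments were divided into 3 nearly equal classes by position alone, the middle class, which then holds Ighv1-23, had a ratio of only 1.15 (38.5 CPM in WT and 33.5 CPM in SF1). The intermediate class by family held a mean share of 3.4% of the Ighv counts in SF1 and 7.67% in WT. The distal class had 109, 121 and 143 CPM in SF1 and 113 and 120 CPM in WT, and the ranges overlapped. Without the top segment of each library the distal level averaged 92.2 CPM in SF1 (SD 5.45) and 92.8 CPM in WT (SD 6.9). That segment was Ighv1-81 in SF1 replicates 2 and 3 and Ighv1-23 in the others. These means thus do not cover the same segments. The distal class by position, which does not hold Ighv1-23, overlapped between the groups with all segments. With the top segments removed it had 77.8, 65.6 and 58.8 CPM in SF1 and 79.8 and 87.2 CPM in WT. Every SF1 library was then below both WT libraries, but only SF1 replicates 2 and 3 had lost a segment of that class.

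The proximal class depended on 1 library. It had 16, 0.963 and 0.919 CPM in SF1 and 2.97 and 2.51 CPM in WT. SF1 replicate 1 was above both WT libraries through Ighv5-6, and SF1 replicates 2 and 3 were below them. The mean share in SF1 was 4.52% with SF1 replicate 1 and 0.694% without it, beside 2.12% in WT, so the direction turned. Within the 250 kb that hold the 17 most distal segments were 33.9, 53.7 and 66.4% of the Ighv counts of SF1 and 44.1 and 45.4% of those of WT, in the same order over SF1 libraries as Ighv1-81.

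The other genes of the heavy chain locus numbered 34, of which 9 were tested, with 2 higher in SF1 and 0 lower. That is 22.2% higher, beside 6.77% higher and 16.5% called in either direction of all genes tested. Igha, the constant gene of immunoglobulin A, had 2522, 1652 and 2894 counts in SF1 and 10 and 8 in WT (log2 fold change 8.46, adjusted p = 5.23e-05). Ighj2, a joining segment, was at 9.57, 9.11 and 10.3 CPM in SF1 and 6.14 and 5.58 CPM in WT. Its log2 fold change was 0.71 with an SE of 0.20 and an adjusted p of 0.0432. The 4 J segments together had 36.7, 45.3 and 41.7 CPM in SF1 and 29.0 and 26.9 CPM in WT. For the D segments the sums were 1.7, 1.31 and 0.919 CPM in SF1 and 3.17 and 3.3 CPM in WT, all SF1 libraries below both WT libraries. The only D segment tested, Ighd1-1, had 5, 8 and 7 counts in SF1 and 36 and 13 in WT (log2 fold change -1.39, adjusted p = 0.0587). Its levels were 0.532, 0.701 and 0.643 CPM in SF1 and 1.81 and 1.48 CPM in WT. Only the WT libraries reached the filter's minimum of about 0.932 CPM, so the filter favours a lower value in SF1. The p-value of Ighd1-1 is therefore not evidence of a difference on its own.

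Of 12 tested genes of the recombinase and of end joining, 2 were lower and 0 higher, with a median log2 fold change of -0.01. The share called, 16.7%, was close to the 16.5% of all genes. Rag1, which encodes a subunit of the recombinase that cuts at V, D and J segments, was at 113, 64.5 and 63.9 CPM in SF1 and 182 and 138 CPM in WT, 2.0-fold lower (adjusted p = 0.0199). Xrcc5, which encodes the Ku80 end-binding protein, was also lower (log2 fold change -0.60, adjusted p = 0.00474). Rag2, the partner of Rag1, was at 277, 207 and 218 CPM in SF1 and 301 and 291 CPM in WT (adjusted p = 0.0841). Dntt, the enzyme that adds bases at the joints, had a log2 fold change of 0.02 (adjusted p = 0.864).

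Among 22 genes for contraction and access of the locus, 4 were lower in SF1, 2 were higher and 16 did not pass, with a median log2 fold change of -0.17. That is 18.2% lower and 9.09% higher, beside 9.74 and 6.77% of all genes. Pax5, the B-cell commitment factor needed for joining of distal segments, was at 19.9, 15.5 and 13.7 CPM in SF1 and 35.2 and 37.6 CPM in WT (log2 fold change -1.16, adjusted p = 0.00259). Tcf3, which encodes the E2A proteins, had a log2 fold change of -1.25 (adjusted p = 0.000161), Foxo1 of -0.82 (adjusted p = 0.0185) and the cohesin subunit gene Stag2 of -0.44 (adjusted p = 0.0186). Il7r, the interleukin 7 receptor chain used in the sort, was higher by 0.32 (adjusted p = 0.0318) and the cohesin loader gene Nipbl by 0.35 (adjusted p = 0.028). Of 3 octamer factors, which act at V promoters, Pou2af1 was lower (log2 fold change -1.67, adjusted p = 0.00206), and Pou2f1 and Pou2f2 did not pass.

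Markers of B-lineage and other cells differed between the groups as well. Of 13 B-lineage progenitor genes tested, 8 (61.5%) were lower in SF1 and 0 higher. Of all genes tested 9.74% were lower, 6.77% higher and 16.5% called in either direction. The summed level of the 13 genes was 7220, 6470 and 6200 CPM in SF1 and 7490 and 7080 CPM in WT. Most of that sum is Dntt, and without it the levels were 1840, 1330 and 1310 CPM in SF1 and 2340 and 2090 CPM in WT, with no overlap. Of 14 plasma cell genes 10 were tested, and 2 (Igha and Jchain, 20%) were higher and 0 lower. Their summed level was 950, 754 and 843 CPM in SF1 and 485 and 500 CPM in WT, and without Igha 681, 609 and 577 CPM against 485 and 499 CPM. No gene of this list was at 0 in every library. Sdc1 (adjusted p = 0.122), Xbp1 (adjusted p = 0.0654), Prdm1 (adjusted p = 0.944) and Mzb1 (adjusted p = 0.196) did not pass. Of 11 mature B genes 5 were tested, 1 of them higher (Igkc, 20%) and 0 lower, with summed levels of 378, 323 and 409 CPM against 134 and 218 CPM. Without Igkc these were 192, 187 and 241 CPM against 133 and 218 CPM, which overlap. Of 6 tested plasmacytoid dendritic cell genes 5 (83.3%) were higher. The part of these cells in the levels of single Ighv segments was not tested.

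The kappa light chain variable segments (Igkv, 160 genes) are the most similar set of genes, joined by the same recombinase later in B-cell development. They had 354, 363 and 496 counts in SF1 and 29 and 10 in WT, without overlap between the groups, whereas the Ighv sums overlapped. For each Igkv count there were 3.48, 3.97 and 3.23 Ighv counts in SF1 and 86.5 and 116 in WT. The most abundant Igkv segment held 72.6, 95.6 and 92.7% of the Igkv counts in SF1, beside 14.3, 17.8 and 37.7% for the top Ighv segment of the same libraries. In WT the share of the top Igkv segment was 82.8% (64.2 to 94.2%) and 70.0% (34.8 to 93.3%), on 29 and 10 counts, so Igkv counts were concentrated in both groups. The top segment was a different one in each SF1 library (Igkv4-57, Igkv10-96 and Igkv4-63). In both WT libraries it was Igkv14-111. Lambda variable segments (Iglv, 3 genes) had 8, 12 and 0 counts in SF1 and 0 and 1 in WT.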

How the data were processed

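Each of the 5 libraries was made from RNA isolated with a small-sample column kit (only RNA with an integrity number above 7), SMART-Seq cDNA and Nextera XT, per the labels' protocols. The deposited values are unnormalized counts of reads for each gene, in a single table. HISAT2 2.2.1 and featureCounts 2.0.1 were used on GRCm38, per the submitters' processing notes. Annotation release, strand setting and treatment of multiply matching reads are not stated in the labels. Of 55487 identifiers, 55227 matched GENCODE M21, which gave symbols, positions and coding sequences.

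The whole table was fitted with edgeR 4.0.16 (R 4.3.3): TMM scaling, filterByExpr (minimum count 10), quasi-likelihood F test without covariates and Benjamini-Hochberg adjustment over all 14423 genes tested, threshold 0.05. Every adjusted p is from this fit unless named. Fold changes are SF1 over WT, and levels are TMM-scaled CPM. SEs derive from the F statistic. Sums, families and classes are descriptions without a test. Members and lists were chosen with earlier results of these data known. Named segments are those called, the 3 most abundant of each library and those with at least 10% of its Ighv counts, plus others said to be chosen later.

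On simulated counts for SF1 against WT (14135 genes), the fit recovered 88.7% of 97 genes changed by 1 on the log2 scale and 99% of 96 changed by 2, with 8 false among 189 calls. The simulation gave every gene the same dispersion (biological coefficient of variation 0.122) at the mean levels of the tested genes. Its rates therefore do not carry over to Ighv segments with few counts or with large differences between libraries. Alternatives were DESeq2 1.42.0, RLE factors, no filter, a minimum count of 50, a replicate block, limma 3.58.1 voom with sample weights, leaving out each library, thinning, other scaling, other classes and omission of pseudogenes. Libraries differed from each other beyond sampling noise and were each counted as 1 sample. Motifs around the segments were not analysed here.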

Additional observations from a re-analysis of the deposited data

How the results depend on the processing

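Of 84 alternative values for 8 single segments, 58 kept their side of the threshold, 24 lost it, 2 gained it and 0 changed direction. Over all genes 2382 calls became 986 to 2170 when 1 library was left out. The number of Ighv segments lower in SF1, 5 in the fit of all libraries, was 2 with DESeq2, 1 with a minimum count of 50 (where Ighv5-2, Ighv14-2, Ighv10-1 and Ighv10-3 were not tested) and between 0 (without WT replicate 1) and 4 when 1 library was left out (2 without SF1 replicate 3, 1 without SF1 replicate 2 and 1 without WT replicate 2). The number higher in SF1, 0 in the fit of all libraries, was between 0 and 1 when 1 SF1 library was left out. With no filter on low counts 124 Ighv segments were tested, with 3 higher and 6 lower. Of all 26875 genes tested in that fit 1356 were higher and 1961 lower. The 3 higher ones include Ighv1-81, and segments abundant in 1 library enter there. The adjusted p of Ighv1-81 was 5.69e-30 in that fit, beside 0.0548 in the main fit and 0.0911 with DESeq2. Its SF1 libraries ranged from 5.11 to 55.4 CPM and overlapped WT, so the value without the filter is not a measure of the strength of evidence. Deviations of libraries with the same replicate number had correlations of 0.036 and 0.065. With only 2 WT libraries the WT deviations mirror each other, so these values cannot settle whether the numbers pair libraries. With a replicate block 1519 genes and 1 Ighv segment were called, the segment lower. Where the segments were divided into 3 nearly equal classes by position alone, shares were 68.9% in SF1 and 64.7% in WT (distal), 25.1 and 29.9% (intermediate), and 6.0 and 5.46% (proximal). Without the top segment of each library the shares were 90.3, 4.3 and 5.38% in SF1 and 88.0, 9.41 and 2.61% in WT. The segment removed was not the same in every library. With pseudogenes and opposite-strand entries left out, the top segment held 16.8, 21.9 and 43.4% in SF1 and 22.9 and 19.8% in WT. Leaving out 1 library gave ratios of the summed level between 0.997 and 1.08. The cause of these changes was not tested. Depth limits the low segments most, since 3 counts are 0.151 to 0.342 CPM.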
